A study of Mus musculus with 6 samples.

Results

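Neutrophils of B16-F10 tumors were described here from single-cell RNA-Seq of CD45+ cells, including the barcodes with few genes that a 600-gene filter leaves out. A barcode, which marks 1 droplet and so usually 1 cell, was taken as a neutrophil by its own counts, when it had 200 to 4000 genes, at most 10% mitochondrial UMIs (counted molecules), at least 10 UMIs of S100a8 and S100a9 together, at least 2 UMIs of Csf3r, Retnlg, Il1r2 and Cxcr2 together, at most 2 UMIs of the C1q genes, and no UMI of the Cd3 or the B cell genes Cd79a, Cd79b and Ms4a1. The members were thus chosen by measured values, and those values are given here only as a description. Of 52899 barcodes, 36657 passed the limits on genes and mitochondrial UMIs, and 2533 of these met the gate, 1592 with under 600 genes and 941 with 600 or more. The study kept cells with 600 to 4000 genes, so 62.9% of the barcodes described here lie outside its filter. B16-F10 is a mouse melanoma line, and the tumors were grown from injected cells in female C57BL/6 mice of 6 to 10 weeks. There were 3 samples of tumors given αPD-1 and 3 of tumors given αPD-1 + corin. All mice of both groups had the αPD-1 antibody, at 150 μg on 3 days a week from day 7, and the combination added daily intraperitoneal corin at 200 μg from day 6. Corin inhibits the CoREST complex, which joins the demethylase LSD1 (Kdm1a) and the deacetylases HDAC1 and HDAC2 with the scaffold Rcor1. The arms are stated to hold 10 mice each. The labels do not tie a sample to a mouse, so the spread between samples may in part be technical.

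Neutrophils are short-lived granulocytes that leave the bone marrow with their granule proteins already made and follow chemokines through Cxcr2 and formyl peptides through Fpr1 into inflamed tissue. They carry little RNA and few kinds of transcript compared with other leukocytes, and much of that RNA codes for alarmins such as S100a8 and S100a9, inflammatory cytokines and surface receptors. In tumors they can release Cxcl2 and Il1b, which draw and activate further myeloid cells, and they can express genes that restrain T cells, such as Cd274, the ligand PD-L1.

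The 6 samples held between 6433 and 13228 barcodes and between 52281422 and 84276739 UMIs, with median UMIs per barcode between 2400 and 3114. Any pair of samples shared at most 32 barcode sequences, and no neutrophil barcode occurred in a second sample. Scrublet, which scores likely doublets, marked 62 of the neutrophils at a rate of 0.4% per 1000 barcodes. They were kept, and removing them is among the alternatives. Intervals given below cover counting error only.

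Both markers that the gate did not use were found. Asprv1, a skin aspartic protease gene also known from neutrophils, lay at 1021, 1087 and 1400.3 CPM (its UMIs scaled by all UMIs of the neutrophils of a sample) in αPD-1 + corin replicates 1 to 3 and at 1026, 848 and 56.9 CPM in αPD-1 replicates 1 to 3. Hdc, the enzyme that makes histamine, lay at 850.4, 989.5 and 1389 CPM and 1453, 2638 and 968 CPM in the same order. In αPD-1 replicate 3, 1 of 11 barcodes held an Asprv1 UMI, against 6 of 9 and 2 of 7 in replicates 1 and 2. Asprv1 is at chromosome 6, 86595254 to 86606692, and Hdc at chromosome 2, 126435558 to 126461318, in GRCm39. Means over the 3 αPD-1 + corin samples in other classes, each set by a UMI gate of its own markers, were 32.5 CPM of Asprv1 in macrophages, 9.74 CPM in monocytes, 83.1 CPM in T cells and 114 CPM in B cells. These comparisons with other cells describe the gate and were not tested, since the gate chose the barcodes by such a contrast.

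The gate genes themselves set the level of the class. Of the calprotectin subunits, S100a8 took 18015, 19233 and 22281 CPM and S100a9 took 36034, 48667 and 47838 CPM in αPD-1 + corin replicates 1 to 3. Retnlg, a resistin-like secreted protein, took 1999.3, 2109 and 2377 CPM, the interleukin 1 decoy receptor Il1r2 1482, 1849 and 2202 CPM, the G-CSF receptor Csf3r 934, 703 and 1333 CPM and the chemokine receptor Cxcr2 414, 535 and 519 CPM. The edges of the gate were thinly filled for S100a8 and S100a9 and well filled for the receptors. Over all samples, 57 neutrophils had 10 to 14 UMIs of S100a8 and S100a9, and 83 barcodes that met the other conditions had 5 to 9. In contrast, 631 neutrophils had 2 or 3 receptor UMIs, while 404 barcodes failed with 1 receptor UMI and 433 with none. On the gene axis, 394 neutrophils had 500 to under 600 genes and 194 had 600 to under 700.

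Outside the gate genes, the highest ratios to all other classes in the αPD-1 + corin samples (with 10 CPM added to each level) were those of Cstdc4, Cxcl3, Slfn4, Stfa2l1, Hcar2 and Acod1. They hold cystatin-like protease inhibitors (Cstdc4, Stfa2l1), a Cxcr2 ligand (Cxcl3), an interferon-inducible Schlafen gene (Slfn4), a niacin receptor (Hcar2) and the itaconate-producing enzyme (Acod1). Cstdc4 reached 1344, 1705 and 1993 CPM in replicates 1 to 3, against means of 60.9 CPM in macrophages and 24.1 CPM in monocytes. Acod1 reached 2180.0, 3185 and 5974 CPM, against 259 CPM in macrophages and 220.4 CPM in monocytes.

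Neutrophils took a larger share of the kept barcodes in every αPD-1 + corin sample than in any αPD-1 sample. In αPD-1 replicates 1 to 3, 9 of 5106, 7 of 4194 and 11 of 5011 kept barcodes were neutrophils, which is 0.176% (95% Wilson interval 0.0928 to 0.335), 0.167% (0.0809 to 0.344) and 0.220% (0.123 to 0.393). In αPD-1 + corin replicates 1 to 3, 852 of 10460, 1519 of 6003 and 135 of 5883 were neutrophils, which is 8.15% (7.64 to 8.69), 25.3% (24.2 to 26.4) and 2.29% (1.94 to 2.71). The combination samples differed widely among themselves, with replicate 2 highest and replicate 3 lowest. The means were 0.188% ± 0.0281 (SD, n = 3) and 11.9% ± 12.0 (SD, n = 3), a difference of 11.7 percentage points with no overlap between the groups. A two-sided exact permutation test over samples gave p = 0.1, the smallest that 3 against 3 samples allow. Without αPD-1 + corin replicate 2 the difference fell to 5.03 points.

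The 600-gene filter changed the level but not the order of the groups. Among barcodes with 600 to 4000 genes, neutrophils made up 0.0672, 0.106 and 0.0904% in αPD-1 replicates 1 to 3 and 3.45, 14.7 and 0.629% in αPD-1 + corin replicates 1 to 3, a difference of 6.16 points (exact permutation p = 0.1). Among kept barcodes with under 600 genes they made up 0.936, 0.696 and 1.19% under αPD-1 and 26.3, 49.6 and 10.9% with corin added (difference 28.0 points, exact permutation p = 0.1). The highest share was that of αPD-1 + corin replicate 2 in both gene ranges. A share is not a number of cells per tumor, and the loaded cells came from suspensions that had been frozen, freed of dead cells and enriched on CD45 beads.

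**Figure D1:**
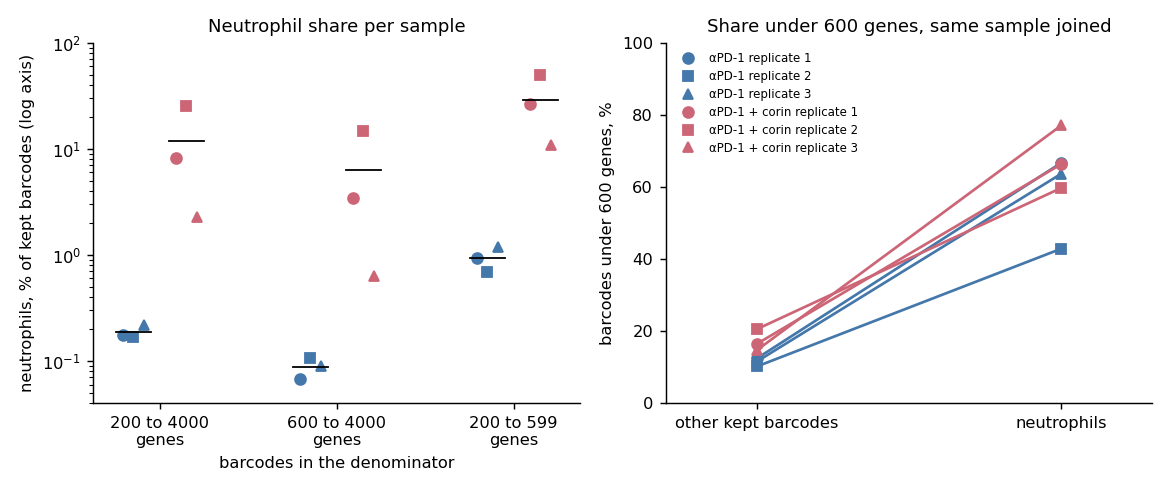
Left, neutrophils as a percent of kept barcodes (log axis) for 3 denominators, with 1 point per sample and lines for the means of 3, where the αPD-1 + corin samples lie above the αPD-1 samples for each denominator. Right, percent of barcodes under 600 genes among other kept barcodes and among neutrophils, with lines joining the values of 1 sample, all 6 of which rise.

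Neutrophil UMIs were also found in cells of other types in the same libraries. Of T cells in αPD-1 + corin replicates 1 to 3, 14.7, 30.6 and 2.52% carried both at least 10 UMIs of S100a8 and S100a9 and at least 2 receptor UMIs, and of macrophages 7.63, 16.7 and 0.225% did. Among αPD-1 samples the same share of T cells, B cells and macrophages lay between 0.171 and 0.787%. The order of the 3 combination samples was the same in T cells as in the neutrophil share. Median UMIs per T cell were 2352, 4627 and 3722 in αPD-1 + corin replicates 1 to 3, and those of neutrophils were 913, 1472 and 1113. The median T cell had 0, 1 and 0 UMIs of S100a8 and S100a9, the median neutrophil 79, 120 and 81. How free RNA or droplets with more than 1 cell contribute to the neutrophil count was not tested.

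Most neutrophils had under 600 genes, in either group. The share under 600 genes was 66.7, 42.9 and 63.6% in αPD-1 replicates 1 to 3 and 66.3, 59.7 and 77.0% in αPD-1 + corin replicates 1 to 3. The groups overlapped, with means of 57.7% ± 12.96 (SD, n = 3) and 67.7% ± 8.74 (SD, n = 3) and a difference of 9.97 points (exact permutation p = 0.5). The αPD-1 values rest on 9, 7 and 11 barcodes. Of the other kept barcodes, 12.5, 10.2 and 11.6% of the αPD-1 samples had under 600 genes, and of the combination 16.5, 20.6 and 14.8%. Neutrophils exceeded the other barcodes of their own sample by 48.4 points on average, in 6 of 6 samples (two-sided exact permutation test by sign flips, p = 0.03125, the smallest that 6 pairs allow). The gate's minimum numbers of S100 and receptor UMIs keep a shallow barcode less readily than a deep one. Its limits on C1q, Cd3 and B cell UMIs put out a deep barcode more readily. Over all samples, 632 kept barcodes with both sets of neutrophil UMIs had a Cd3 UMI and 239 a B cell UMI. These count among the other kept barcodes, and the net effect on the excess was not tested. The p-value thus shows only that the 6 samples went the same way. It cannot set a trait of neutrophils apart from the effect of the gate.

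Part of the low gene number remained at equal depth. When 500 UMIs were drawn from each barcode, neutrophils of αPD-1 replicates 1 to 3 showed medians of 292, 311 and 312 genes, and those of αPD-1 + corin replicates 1 to 3 medians of 284, 259 and 275. The medians of the other classes over all 6 samples were 334 to 346.5 genes in macrophages, 347 to 368 in monocytes, 353 to 366 in B cells and 362 to 369 in T cells. Every neutrophil median lay below every median of these 4 classes. Among barcodes under 600 genes alone, αPD-1 neutrophils had 286.5, 311 and 281 genes in replicates 1 to 3 (6, 3 and 7 barcodes). Macrophages under 600 genes had 280.5, 289 and 296.5 there, and 318, 296 and 287 in αPD-1 + corin replicates 1 to 3. Barcodes outside all classes, including those that failed the limits, had medians of 316 to 367, and 146 to 288 under 600 genes. Within the neutrophils of the αPD-1 + corin samples, barcodes under 600 genes had 267, 248 and 264.5 genes at 500 UMIs and those at or over 600 genes had 348, 284 and 309. These 2 sets were split by gene number, so this order is in part built in. The gate also asks each neutrophil for S100 UMIs, which take up part of the draw. How much either adds was not tested. The total depth also differed: median UMIs were 749, 1179 and 1022.5 under 600 genes and 2630 (replicate 1), 2626 (replicate 2) and 1973 (replicate 3) at or over it.

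**Figure D2:**
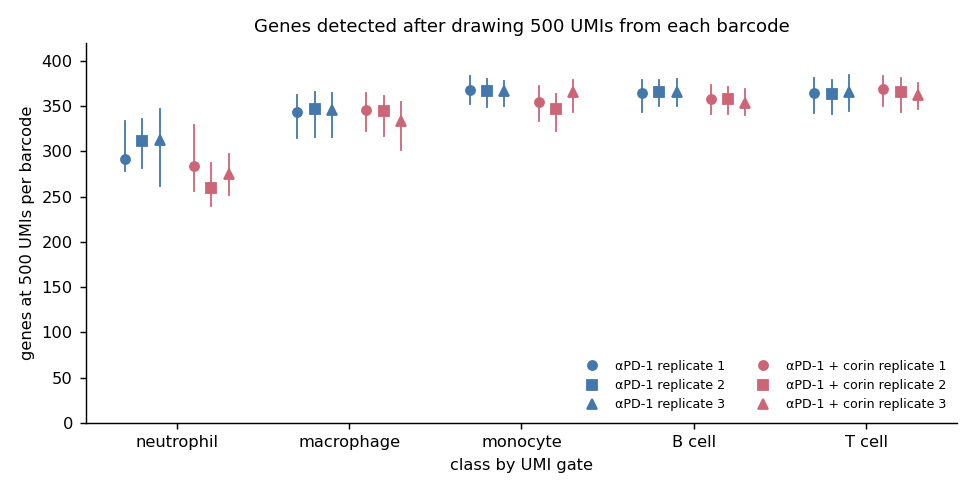
Genes per barcode after 500 UMIs were drawn from each barcode, by class and sample. Points are medians over the barcodes of a sample and bars run from the 25th to the 75th percentile. Neutrophil medians lie between 259 and 312 genes, below the 334 to 369 of the other classes shown.

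The make-up of the neutrophils shifted in steps with the number of genes per barcode. In the αPD-1 + corin samples together, S100a8 and S100a9 took 11.5% of UMIs at 200 to under 300 genes, 10.2% at 400 to under 600, 7.99% at 600 to under 1000, 3.62% at 1000 to under 2000 and 1.47% at 2000 to 4000. Asprv1 and Hdc summed to 3469 CPM in the lowest bin, 2517 CPM at 600 to under 1000 genes and 637 CPM in the highest. Ribosomal protein genes went the other way, from 1.10% of UMIs in the lowest bin to 2.17% at 600 to under 1000 genes and 10.4% in the highest. The 23 chemokines and cytokines fell from 93523 to 80337 and then to 21412 CPM over the same 3 bins. In these pooled values replicate 2 supplies 765259 of the 959998 UMIs at 600 to under 1000 genes. There, S100a8 and S100a9 took 6.35, 8.41 and 6.12% in replicates 1 to 3, and Asprv1 and Hdc summed to 2304, 2576 and 2194.5 CPM. These values describe the barcodes and were not tested, since the rule used the S100 genes and the gene number.

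Markers of other cell types rose along the same axis, and the cause of this rise was not tested. Fits without part of the barcodes that carry them are given below. The 9 dendritic cell markers, carried by the MHC class II genes H2-Ab1 and H2-Aa, summed to 44.2 CPM at 200 to under 300 genes, 463 CPM at 600 to under 1000 and 7843 CPM at 2000 to 4000. The 7 monocyte markers rose from 530.3 to 775 and 3634 CPM, and the 9 macrophage markers outside the gate from 409 to 731 and 1787 CPM. The 7 B cell markers outside the gate, which include the class II chaperone Cd74, reached the highest level, from 122 to 604 and 8672 CPM, and summed to 6765, 3820.4 and 894 CPM at or over 600 genes in replicates 1 to 3. In monocytes of the αPD-1 + corin samples the 7 monocyte markers summed to between 5953 and 7197 CPM. The share of neutrophils with at least 1 UMI of a class II or C1q gene was 16.6, 19.4 and 33.7% under 600 genes and 70.0, 54.2 and 48.4% at or over 600 genes in αPD-1 + corin replicates 1 to 3. In αPD-1 + corin replicate 1 and replicate 2 the dendritic cell markers reached 6147 and 3238 CPM at or over 600 genes, and in replicate 3 550.1 CPM. T cell markers stayed at or below 165 CPM in the αPD-1 + corin sums of either gene class, and mast cell, basophil and eosinophil markers at or below 41.3 CPM. The 137 barcodes with 2000 genes or more meet the gate but carry markers of several lineages, and the name neutrophil rests for them on the gate alone.

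**Figure D3:**
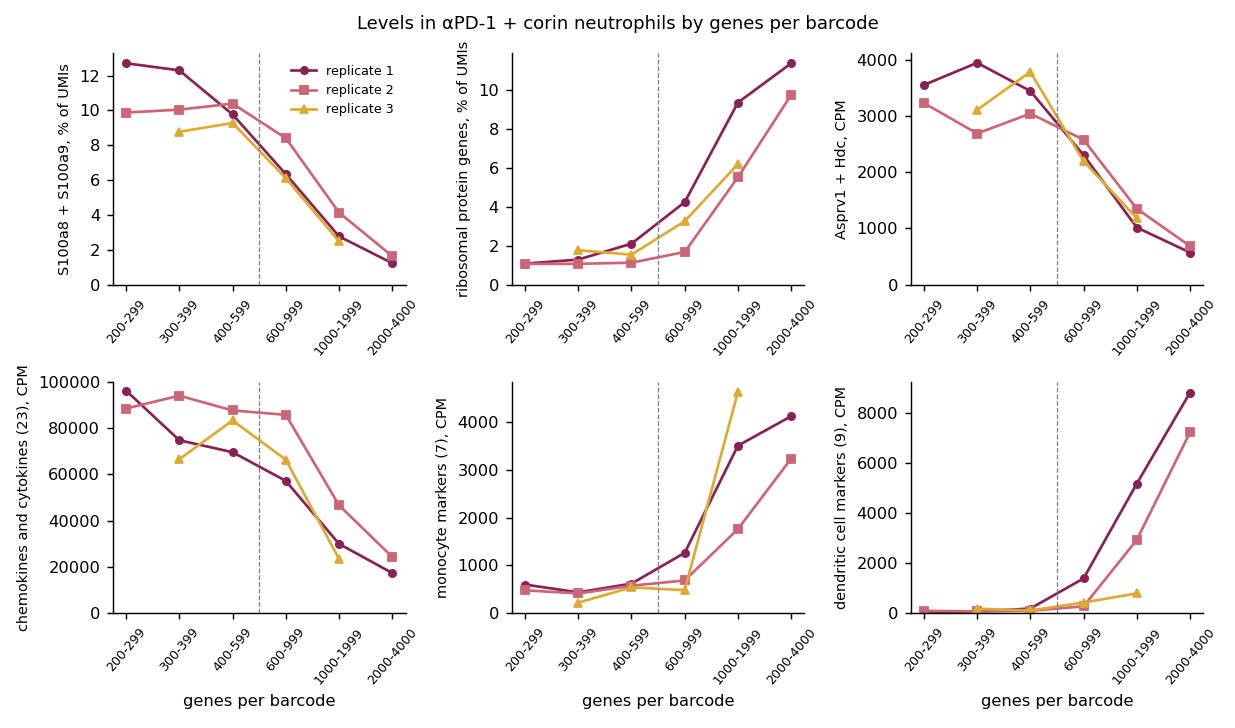
Levels in αPD-1 + corin neutrophils by genes per barcode, with 1 line per sample and bins of at least 10 barcodes shown (replicate 3 has 19 barcodes at 600 to under 1000 genes and 11 at 1000 to under 2000). S100a8 and S100a9, Asprv1 and Hdc, and the chemokines fall to the right of 600 genes (dashed line) while ribosomal protein genes and the monocyte and dendritic cell markers rise.

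To ask what the barcodes under 600 genes express, UMIs were summed per sample over those under 600 genes and over those at or over 600 genes, without the gate genes, and compared within samples by edgeR's quasi-likelihood test. The 3 αPD-1 + corin samples had the required 10 barcodes in each sum, and no αPD-1 sample did, so the comparison describes the combination group. Of 5318 genes tested, 1333 were higher and 1548 lower under 600 genes (54.2% called, 25.1% higher and 29.1% lower). Without TMM scaling, the split was 572 higher (10.8%) against 2263 lower (42.6%, 53.3% called in all), and the median log2 fold change of all genes was -0.60 in place of -0.10. Directions near 0 therefore depend on the scaling, while lists are read below against the median of all genes. A gene could pass the filter on low counts through 1 gene class alone.

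A fixed minimum of UMIs asks a larger share of a shallow barcode's RNA to be S100 and receptor RNA, so neutrophil genes can be higher under 600 genes through the gate. After drawing 500 UMIs per barcode, 1192 of 1576 neutrophils under 600 genes and 403 of 930 at or over 600 genes still met the gate in the αPD-1 + corin samples. On these barcodes, selected at equal depth, edgeR called 404 of 2875 genes (14.1%), 136 higher (4.73%) and 268 lower (9.32%), with a median log2 fold change of 0.05. This alternative was chosen after seeing the data, and its values are given beside each list because they are much smaller for the neutrophil genes. Only the minimum numbers of S100 and receptor UMIs were met at equal depth. The limits on C1q, Cd3 and B cell UMIs still had to hold on all UMIs of a barcode. All UMIs of the selected barcodes were summed. With the gate met on all UMIs and the sums thinned to 500 UMIs a barcode, 650 of 2435 genes were called, among them Cxcr1, Ly6g, Mmp9, Lcn2, Slc2a3 and Malat1, which do not pass among barcodes selected at equal depth. Among barcodes selected at equal depth, 61 of the 71 called genes whose values are given here could be tested. Of these, 60 kept their direction and 37 their call. Without barcodes with a class II or C1q UMI, 685 of 2850 genes were called, 215 higher and 470 lower. This setting was also chosen after seeing the data. There Asprv1 (log2 fold change 1.48), Fpr1 (1.38) and Il1b (1.15) stayed higher. Genes that did not pass there included Spp1 (0.08), Aldoa (0.02), Hp (0.52), Lcn2 (0.69), Ccl4 (0.50) and Pim1 (0.61).

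Both neutrophil markers outside the gate were higher under 600 genes. Asprv1 stood at 2054, 1606 and 1916 CPM under 600 genes and 545, 820.2 and 660.1 CPM at or over 600 genes in αPD-1 + corin replicates 1 to 3 (log2 fold change 1.97 ± 0.24 SE, adjusted p = 5.27e-15). Hdc stood at 1627, 1388 and 1744 CPM against 492, 785 and 880.1 CPM (1.70 ± 0.23 SE, adjusted p = 1.09e-11). For both genes the 2 sets of 3 values did not overlap. Overlap is given here and below only to describe single genes, since the share of all tested genes without overlap was not counted. Selected at equal depth, the log2 fold changes were 1.04 (adjusted p = 0.000252) for Asprv1 and 0.70 (adjusted p = 0.00975) for Hdc.

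Chemoattractant receptors were higher as a list. Of 13 tested, 12 were higher under 600 genes and the other, Csf2ra, did not pass, with a median log2 fold change of 1.40. Fpr1, which senses bacterial and mitochondrial formyl peptides, was at 620.5, 629 and 469 CPM against 152, 271 and 206 CPM (2.05 ± 0.25 SE, adjusted p = 4.19e-15). Cxcr1, a receptor for CXC chemokines, was at 53.0, 67.5 and 67.1 CPM against 7.14, 33.8 and 0 CPM (2.12 ± 0.32 SE, adjusted p = 9.1e-10), with no UMI in replicate 3 at or over 600 genes. The complement receptor C5ar1 was at 718, 783 and 853 CPM against 275, 483 and 454 CPM, and the chemokine receptor Ccr1 at 1190.2, 1219 and 1399 CPM against 420.1, 751 and 798 CPM (log2 fold changes 1.51 and 1.52). Fpr1 is at chromosome 17, 18096733 to 18104202, and Cxcr1 at chromosome 1, 74230944 to 74233790, in GRCm39. None of these 4 overlapped between the 2 gene classes, a description with no share over all genes to set it against. Il1rap, the shared chain of interleukin 1 receptors, had a log2 fold change of 1.80 and Ccrl2, which binds chemerin, one of 1.40. In barcodes selected at equal depth, 4 of 13 were higher with a median of 0.54, and Cxcr1 did not pass (1.204, adjusted p = 0.0535).

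Of 19 chemokines and cytokines tested, 12 were higher and 2 lower, with a median log2 fold change of 1.17. Cxcl2, a neutrophil attractant that acts on Cxcr2, was the most abundant of the list with 43795, 46102 and 42833 CPM under 600 genes and 14171, 27398 and 20710.0 CPM at or over it (1.64 ± 0.25 SE, adjusted p = 1.34e-09). Il1b was at 8102, 11786 and 9992 CPM against 2448, 6040.3 and 4511 CPM (1.78 ± 0.24 SE, adjusted p = 4.37e-12). In GRCm39, Cxcl2 is at chromosome 5, 91051730 to 91053797, and Il1b at chromosome 2, 129206490 to 129213059. Both were higher in every sample without overlap, whereas Ccl3, a ligand of Ccr1, barely separated, at 8923, 13421 and 12560.0 CPM against 3511, 8810.0 and 6119.5 CPM (log2 fold change 1.497). Ccl4, a related CC chemokine, overlapped at 3557, 3386 and 5183 CPM against 2058, 2529 and 3864 CPM (log2 fold change 1.05). Ccl2, the ligand of the monocyte receptor Ccr2, was lower, at 426, 273 and 479 CPM against 1486, 694 and 1664 CPM (-1.12 ± 0.23 SE, adjusted p = 7.27e-06). Among barcodes selected at equal depth, 7 of 17 were higher and 1 lower with a median of 0.53, Cxcl2 at 0.90, Il1b at 0.87 and Ccl2 at -1.80 among them, while Ccl4 did not pass (0.33, adjusted p = 0.308).

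Of 8 tested genes of specific granules, 6 were higher and 1 lower (median 1.11), and of 10 genes of gelatinase granules and maturity 9 were higher (median 1.05). Of the 7 azurophil granule genes, which are made early in the marrow, 6 were too low to test, and the list summed to between 47.9 and 64.0 CPM under 600 genes. The antiproteinase Slpi was at 2248, 4396 and 1667 CPM against 863, 2656 and 908 CPM (1.51 ± 0.24 SE, adjusted p = 2.73e-09). The iron-scavenging protein gene Lcn2 was at 1069, 884 and 929 CPM against 383, 468 and 660.1 CPM (log2 fold change 1.53) and haptoglobin, Hp, at 691, 407 and 546 CPM against 303, 255 and 523 CPM (1.25). Slpi and Hp overlapped between the classes and Lcn2 did not. Anxa1 did not pass (log2 fold change -0.01, adjusted p = 0.973). Chil3, a chitinase-like lectin that monocytes and macrophages also make, was lower, at 19.9, 21.6 and 0 CPM against 347, 51.6 and 413 CPM (-2.40 ± 0.32 SE, adjusted p = 2.16e-12), and so was the protease activator Ctsc (-2.64).

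Among the maturity genes, Mxd1, a Myc antagonist of terminal differentiation, was at 1510.4, 1314 and 1514 CPM against 454, 767 and 921 CPM (1.61 ± 0.23 SE, adjusted p = 1.38e-10). Ly6g, the surface marker used to sort mouse neutrophils, varied widely between samples, at 473, 875 and 76.6 CPM against 117, 532 and 68.8 CPM (1.76 ± 0.26 SE, adjusted p = 4.38e-10). It was lowest in replicate 3 in both classes. The gelatinase Mmp9 (log2 fold change 1.61), the sheddase Adam8 (1.05) and the integrin Itgam (0.96) were also higher. Selected at equal depth, 2 of 7 specific granule genes and 2 of 10 of the second list were higher (medians 0.42 and 0.42), Slpi, Hp and Mxd1 among them, and Lcn2 (adjusted p = 0.159), Ly6g (0.139), Mmp9 (0.146), Adam8 (0.232) and Itgam (0.147) did not pass.

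**Figure D4:**
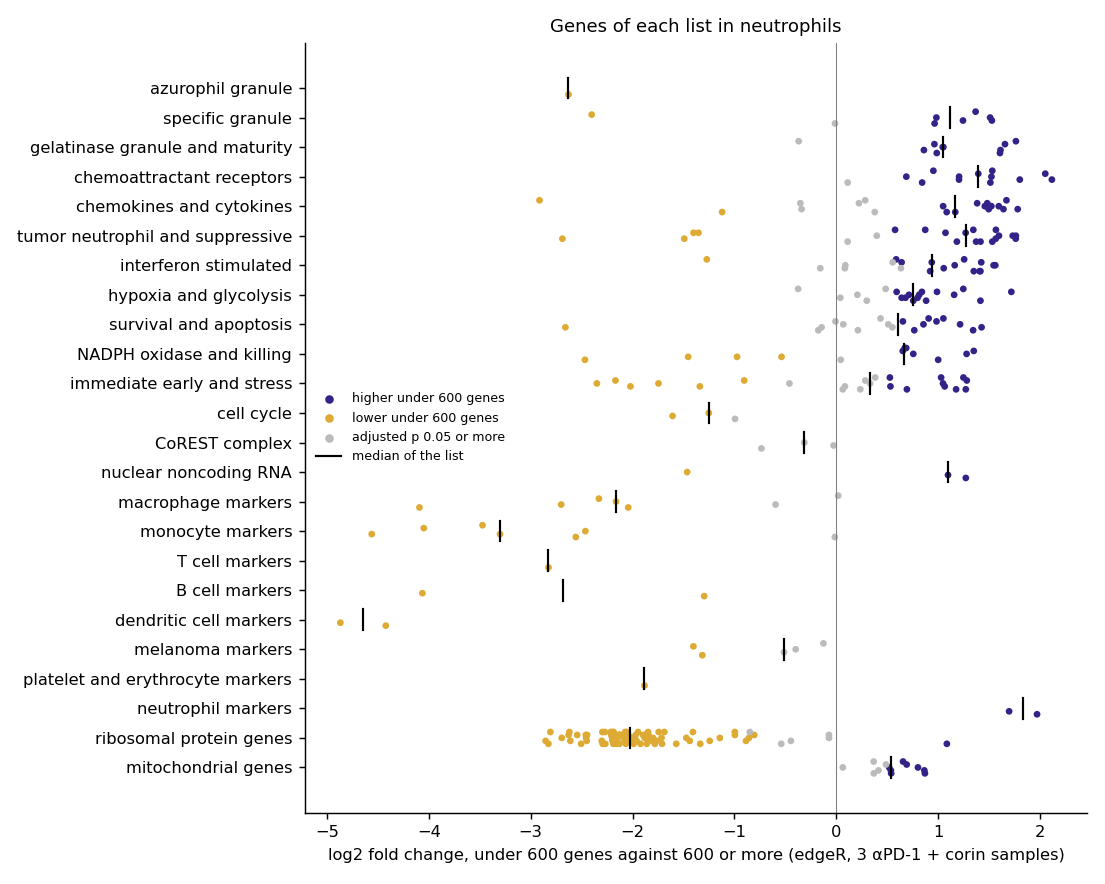
Log2 fold changes under 600 genes against 600 or more, by gene list, from edgeR on the 3 αPD-1 + corin samples. Each point is 1 tested gene, coloured by its call, with black lines for medians, which lie right of 0 for receptors (1.40), chemokines (1.17) and specific granules (1.11) and left of 0 for ribosomal symbols (-2.02), monocyte (-3.30) and dendritic cell markers (-4.65).

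Of 21 tested genes known from tumor neutrophils and suppressive myeloid cells, 15 were higher and 4 lower, with a median log2 fold change of 1.27. The C-type lectin receptors Clec4d and Clec4e were at 3120.1, 2392 and 3506 CPM and 2286, 2545 and 2960.3 CPM under 600 genes, against 992, 1331 and 1540.2 CPM and 663, 1346 and 1430.2 CPM (log2 fold changes 1.73 and 1.76). Ptgs2, the cyclooxygenase of prostaglandin synthesis, was at 1784, 3183 and 1974 CPM against 707, 2059.9 and 811 CPM (1.57 ± 0.23 SE, adjusted p = 4.95e-10). Clec4d and Clec4e did not overlap between the classes and Ptgs2 did. Cd274 was at 589.6, 582 and 2108 CPM against 299.8, 498 and 1128 CPM (1.19 ± 0.23 SE, adjusted p = 1.44e-06), highest in replicate 3 in both classes, which overlapped. Arg1, an arginase of suppressive macrophages, was lower, at 86.1, 30.0 and 9.58 CPM against 912, 259 and 41.3 CPM (-2.69 ± 0.30 SE, adjusted p = 1.4e-17), and the nitric oxide synthase Nos2 had a log2 fold change of -1.35. Cd274 is at chromosome 19, 29344529 to 29365495, and Arg1 at chromosome 10, 24791118 to 24803817, in GRCm39. Osteopontin, Spp1, was called higher (1.07) but had a log2 fold change of -0.32 (adjusted p = 0.307) when barcodes were selected at equal depth. There, 8 of 20 of the list were higher and 2 lower with a median of 0.58, Arg1 at -2.80, and Cd274 did not pass (0.55, adjusted p = 0.0765).

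Of 19 interferon-stimulated genes, 13 were higher and 1 lower (median 0.94). Slfn4 was at 3946, 4476.8 and 3411 CPM against 1344, 2513 and 2022 CPM (1.56 ± 0.23 SE, adjusted p = 5.95e-10), the ubiquitin-like modifier Isg15 at 1229.9, 1911 and 2730.4 CPM against 504, 949.9 and 2063 CPM (1.42 ± 0.23 SE, adjusted p = 8.51e-09), and the antiviral membrane gene Ifitm2 at 3171, 1493 and 2951 CPM against 2045, 1211 and 1760.2 CPM (log2 fold change 1.06). Slfn4 was separate between the classes, while Isg15 and Ifitm2 overlapped. Ifitm3, of the same family, did not pass (0.09, adjusted p = 0.751, and -0.37 without TMM). In barcodes selected at equal depth, 4 of 18 were higher with a median of 0.52.

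Of 19 genes of hypoxia and glycolysis, 14 were higher (median 0.76), led by the glucose transporter Slc2a3 at 919, 1297 and 728 CPM against 261, 704 and 426 CPM (1.72 ± 0.24 SE, adjusted p = 2.34e-11). The glycolytic enzymes Ldha, Pkm and Aldoa had log2 fold changes of 0.88, 0.99 and 0.68, and Gapdh did not pass (0.30, adjusted p = 0.269). None of the 19 passed when barcodes were selected at equal depth (median 0.24). Without TMM, 5 of the 19 were higher and 1 lower. Of 18 survival and apoptosis genes, 9 were higher and 1 lower (median 0.60). Mcl1, the Bcl-2 family member on which neutrophils depend, was at 2921, 2738 and 3219 CPM against 1327, 1771 and 1925 CPM (1.34 ± 0.23 SE, adjusted p = 6.12e-08), without overlap. The NF-κB inhibitor Nfkbia and the early response gene Ier3 had log2 fold changes of 1.22 and 1.43, and Pim1, a survival kinase, one of 0.99. Among barcodes selected at equal depth, 3 of 15 were higher (median 0.31), and these were Mcl1 (0.62), Nfkbia (0.57) and Ier3 (0.64).

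The list of oxidase and killing genes moved both ways, with 7 of 12 higher and 4 lower (median 0.66). Cybb, the membrane subunit of the NADPH oxidase, was lower, at 26.5, 36.6 and 19.2 CPM against 252, 227 and 371 CPM (-2.47 ± 0.29 SE, adjusted p = 2.87e-15), and so was its partner Cyba (-0.54, adjusted p = 0.0387). Lysozyme 2, Lyz2, which monocytes and macrophages make in large amounts, was lower, at 759.6, 636 and 546 CPM against 2787, 1599 and 4098 CPM (-1.45 ± 0.23 SE, adjusted p = 6.89e-09). Glutathione peroxidase, Gpx1, was lower at -0.97, and Alox5ap, needed for leukotriene synthesis, was higher at 0.65 although its CPM was higher in 2 of 3 samples. Cybb is at chromosome X, 9301491 to 9354010, and Lyz2 at chromosome 10, 117111557 to 117118346, in GRCm39. Cybb and Lyz2 did not overlap between the classes. Selected at equal depth, 1 of 12 was higher and 3 were lower, Cybb at -1.92, Lyz2 at -0.78 and Gpx1 at -0.88.

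Immediate early and stress genes had no common direction, with 10 of 23 higher and 6 lower (median 0.33, and -0.13 without TMM). The transcription factors Junb and Egr1 had log2 fold changes of 1.28 and 1.27, and the feedback genes Zfp36 and Dusp1 of 1.18 and 1.05. The heat shock genes Hspa1a, at 39.7, 51.6 and 86.2 CPM against 239, 184 and 605 CPM, and Hspa8, at 245, 252 and 307 CPM against 1099, 782 and 1031 CPM, were lower (-1.75 and -1.34). In barcodes selected at equal depth, 1 of 22 was higher and 4 were lower, with Junb still higher (0.54) and Hspa1a (-1.77) and Hspa8 (-1.07) still lower.

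Nearly all tested ribosomal protein genes were lower. Of 79 tested ribosomal protein genes, 78 were lower under 600 genes and the other, Rps9, did not pass (median -2.06, range -2.85 to -0.07). All 95 symbols of the family together summed to 16197, 11233 and 15932 CPM under 600 genes and to 93845, 53643 and 54044 CPM at or over 600 genes in αPD-1 + corin replicates 1 to 3, without overlap. Among barcodes selected at equal depth, 77 of 79 were lower (median -1.56), and without TMM all 79 were. The 12 further symbols that begin like ribosomal genes, such as the kinase Rps6ka2, are left out of the counts of tested genes. Of the 13 mitochondrial genes 8 were higher (median 0.54), and none passed among barcodes selected at equal depth (12 tested) or without TMM. Malat1, a nuclear noncoding RNA, was higher, at 20030.0, 39775 and 20569 CPM against 9665, 26698 and 12775 CPM (1.27 ± 0.25 SE, adjusted p = 1.64e-06), and Neat1 too (1.10), while Xist was lower (-1.46). Among barcodes selected at equal depth Xist remained lower (-1.80), and Malat1 (0.61, adjusted p = 0.0581) and Neat1 did not pass.

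Markers of most other lineages that could be tested were lower under 600 genes. Of 7 monocyte markers, 6 were lower (median -3.30), and Ly6c2 was not called. Of 7 tested macrophage markers 5 were lower (median -2.16), and so were both tested dendritic cell markers (median -4.65) and both tested B cell markers. Of 5 tested melanoma markers 2 were lower and 3 were not called (median -0.51). That is 40% of a short list, against 29.1% of all genes called lower, and does not set the list apart. The B cell markers tested were Ighm (-1.30) and Cd74 (-4.06). The 1 tested T cell marker, the interleukin 7 receptor gene Il7r (-2.83), and the 1 tested platelet marker, Pf4 (-1.89), were lower too, while the T cell receptor genes Trac, Trbc1 and Trbc2 were too low to test. Among those selected at equal depth 4 of 5 monocyte markers, 2 of 3 macrophage markers and both dendritic cell markers remained lower (medians -2.39, -2.31 and -3.85). The 12 cell cycle genes summed to 86.1, 103 and 38.3 CPM under 600 genes in αPD-1 + corin replicates 1 to 3. At or over 600 genes they summed to 388, 251 and 481 CPM. Only 3 of the 12 could be tested, of which Top2a (-1.61) and Tubb5 (-1.25) were lower and Mki67 (-0.99, adjusted p = 0.0619) did not pass.

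The largest differences among genes past the threshold followed the same lines. Higher were Pde1a, a phosphodiesterase, the stefins Stfa1 and Stfa2, Cxcr1, the gene models Gm2511 and Gm19705, the lipolysis inhibitor G0s2 and Fpr1, with log2 fold changes between 2.05 and 2.22. G0s2 was at 1508, 1224 and 1217 CPM against 323, 590.2 and 481 CPM, and 44.0% of barcodes under 600 genes and 52.3% at or over it held a UMI of it. Stfa1 was at 243, 219.5 and 728 CPM against 68.3, 104 and 82.5 CPM, and Stfa2 at 236, 263 and 134 CPM against 54.0, 126 and 13.8 CPM. The stefins belong to a cluster of near-identical genes between which reads can be split, so their single levels are uncertain. Pde1a was in 56 of 1576 barcodes under 600 genes, with up to 15 of its 94 UMIs in 1 barcode. Selected at equal depth, Pde1a (1.83), Stfa1 (1.03), Stfa2 (1.13), G0s2 (1.15) and Fpr1 (1.199) remained higher, and Gm19705 did not pass (0.97, adjusted p = 0.108).

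Lower were Ptpro, Ccdc86, H2-DMb1, Irf8, Dcn, Sdf2l1, H2-Eb1 and Crip1. The first 6 passed the filter on low counts only through the sums at or over 600 genes. A barcode with more genes also holds a rare transcript more readily. The falls of these 6 genes are therefore given as a description. H2-Eb1, an MHC class II chain, was at 42.0, 29.1 and 47.9 CPM against 2637, 1351 and 151 CPM (-4.89 ± 0.33 SE, adjusted p = 3.52e-46). Irf8, a transcription factor of monocytes and dendritic cells, was at 6.62, 2.81 and 0 CPM against 220.3, 229 and 55.0 CPM (-5.24 ± 0.45 SE, adjusted p = 1.93e-28), with 6 UMIs in 1576 barcodes under 600 genes and 694 UMIs in 185 of 930 barcodes over it. Crip1, a LIM domain protein gene, was at 19.9, 10.3 and 0 CPM against 915, 376 and 303 CPM (-4.87 ± 0.35 SE, adjusted p = 1.12e-41). H2-Eb1 is at chromosome 17, 34504236 to 34535648, and Irf8 at chromosome 8, 121463096 to 121485659, in GRCm39. Ptpro, a receptor phosphatase, and Ccdc86 had no UMI under 600 genes. Against a floor of 3 UMIs over the group they were at least 18.2-fold and 13.8-fold lower. H2-DMb1, which loads class II molecules, had 3 UMIs under 600 genes and 395 over, a ratio of 68.3 (95% exact interval 23.2 to 333). Sdf2l1, of the endoplasmic reticulum, had 2 against 198 (51.4, 14.04 to 427). Dcn, a matrix proteoglycan of fibroblasts, had 2 against 199 UMIs (51.6, 14.1 to 429), but these 199 came from 16 barcodes with up to 87 in 1. H2-Eb1 and Crip1 remained lower among barcodes selected at equal depth (-4.18 and -4.29), and the other 6 were then too low to test.

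**Figure D5:**
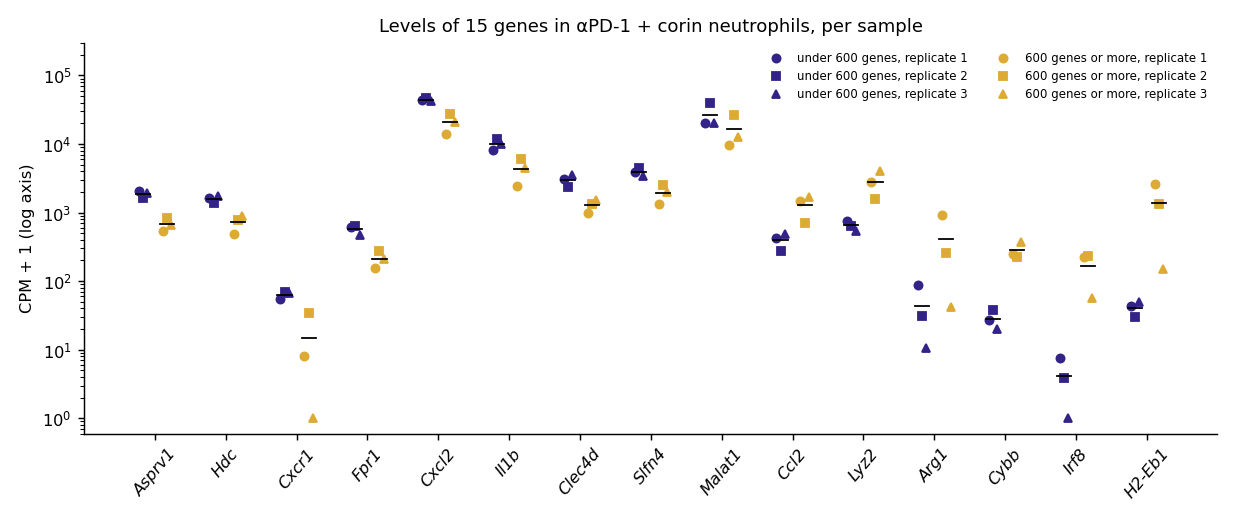
CPM + 1 (log axis) of 15 genes in αPD-1 + corin neutrophils under 600 genes and at or over 600 genes, with 1 point per sample and black lines for the means of 3 samples. Asprv1, Hdc, Fpr1, Cxcl2, Il1b, Clec4d and Slfn4 are higher under 600 genes in each sample, and Ccl2, Lyz2, Cybb, Irf8 and H2-Eb1 are lower in each.

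Genes of the complex that corin inhibits were found at low levels. The 6 genes of the list summed to 200.2, 139.8 and 119 CPM in neutrophils of αPD-1 + corin replicates 1 to 3, to 193, 195 and 209 CPM in macrophages and to 242, 256 and 209 CPM in monocytes, values that describe the classes without a test. Rcor1 was at 81.6, 50.6 and 45.2 CPM, Kdm1a at 52.3, 32.8 and 45.2 CPM and Hdac1 at 43.9, 41.4 and 22.6 CPM over the neutrophils of αPD-1 + corin replicates 1 to 3. The αPD-1 neutrophils held 2 UMIs of Rcor1, 2 of Kdm1a and 1 of Hdac1 in 27 barcodes, and no difference between the groups was detectable at this depth. None of the 3 passed edgeR's test between the gene classes, with log2 fold changes of -0.31 (adjusted p = 0.386), -0.73 (0.0573) and -0.03 (0.956). Without TMM 2 of these 3 were called lower under 600 genes. Hdac2, Rcor2 and Rcor3 were too low to test.

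Differences between the treatments within neutrophils could hardly be tested, since the αPD-1 samples held 27 neutrophils in all with between 10615 and 17566 UMIs a sample, against 177099 to 3139841 in the αPD-1 + corin samples. With at least 10 barcodes a sample, only αPD-1 replicate 3 could be set against the 3 αPD-1 + corin samples, so that the spread came from the latter. Of 7565 genes, edgeR called 4 lower in αPD-1 + corin (0.0529% called) and 0 higher, while 519 had an unadjusted p under 0.05 and DESeq2 called 31 higher and 3 lower. On simulated counts for this comparison, 7 of 200 genes changed 4-fold were found. The 4 genes were Camp, Ngp and Ltf, which code for specific granule proteins, and Nfkb1. Camp lay at 7002 CPM in αPD-1 replicate 3, against 0, 0.955 and 5.65 CPM in αPD-1 + corin replicates 1 to 3 (adjusted p = 5.62e-08). Nfkb1, an NF-κB subunit, lay at 1708 CPM against 149, 83.1 and 67.8 CPM (adjusted p = 0.0266). The 123 Camp UMIs, 290 Ngp UMIs and 74 Ltf UMIs of αPD-1 replicate 3 each lay in a single barcode of 1283 genes, and the 30 Nfkb1 UMIs in a single barcode of 1623 genes. In αPD-1 replicates 1 and 2 Camp and Ltf had no UMI, and Nfkb1 lay at 85.5 and 377 CPM.

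With all 6 samples and no minimum of barcodes, 1314 genes were tested and edgeR called 0, with 149 at an unadjusted p under 0.05, while DESeq2 called 23. The levels of the main neutrophil genes overlapped between the groups. Cxcl2 lay at 40256, 36740.5 and 16623 CPM in αPD-1 replicates 1 to 3 and 23529.9, 33748 and 33749.5 CPM in αPD-1 + corin replicates 1 to 3, and Il1b at 7607, 3957 and 3359 against 4234, 7991 and 7741 CPM. Cd274 lay at 1453, 2167 and 683 against 391, 526 and 1705 CPM. Of the 27 αPD-1 neutrophils, 24 held a Cxcl2 UMI, 24 an Il1b UMI, 21 an Hdc UMI and 26 an Mcl1 UMI. Whether the difference between gene classes changes with treatment could not be fitted, because no αPD-1 sample had 10 barcodes in each class.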

How the data were processed

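Single-cell 5′ RNA-Seq (GEM-X 5′ v3) had been run on CD45+ cells from 6 samples of cryopreserved tumor suspensions. The deposited files hold raw UMI counts per gene and barcode, which the authors made with Cell Ranger 8.0 on GRCm39, with barcodes already called as cells. The study then kept 600 to 4000 genes per cell and removed doublets with DoubletFinder, neither of which was applied here. The neutrophils and all gene lists were chosen with earlier results of these data known. Other classes were set by UMI gates on Cd3 genes, B cell genes, C1q genes, or Lyz2 with monocyte genes.

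UMIs were read with scanpy 1.11.5 and summed per sample. A sum needed at least 10 barcodes. The genes of the gate were taken out of the sums. The sums were filtered by filterByExpr, scaled by TMM and tested with edgeR 4.0.16 (quasi-likelihood, Benjamini-Hochberg adjusted p under 0.05, with the sample as a block between gene classes). Adjusted p-values are over all genes tested, and CPM values are not corrected for gene length. On simulated counts of the 5318 genes, the comparison of gene classes found 174 of 200 genes changed 4-fold, with 3 false calls. These counts were drawn around 1 mean per gene, without the gate or the split by gene number. The 3 false calls therefore do not measure false calls among the genes called between the real gene classes. Shares were compared by exact permutation of the samples. Wilson intervals are at 95%. Thinning drew 500 UMIs per barcode without replacement. Genes were named by a rule on size and on rank within each list, which gave 150 genes, of which 78 have values here, and 1 further gene is not reported here. Positions are those of GENCODE for GRCm39, in which 31674 of 32285 gene IDs were found. DESeq2 1.42.0 and the other limits on genes, mitochondrial UMIs, gate minima, doublets, scaling and samples were run as alternatives. The labels do not say that samples came from separate mice, so p-values measure the spread between these samples, which may be technical. Replicate numbers were not taken as pairs.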

Additional observations from a re-analysis of the deposited data

Results flagged for a closer look

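Neutrophil UMIs outside the gate were more frequent in the αPD-1 + corin samples than in the αPD-1 controls in each of 4 sets of barcodes. None of these barcodes was counted as a neutrophil in the main comparisons. The sets of kept barcodes are part of the other kept barcodes above, and the set with a Cd3 UMI includes T cells described above. Some enter alternatives with other limits. The part of cells, doublets and free RNA in these sets was not tested. Barcodes that met the gene conditions with over 10% mitochondrial UMIs made up 0.814% of all barcodes on average (255 barcodes) against 0.00476% (1 barcode). Barcodes with over 4000 genes that met them made up 0.181% (58 barcodes) against 0.0101% (2 barcodes). Kept barcodes with both sets of neutrophil UMIs and a Cd3 UMI made up 2.99% of kept barcodes (615) against 0.117% (17), and by sample 1.75, 6.30 and 0.918% against 0.196, 0.0954 and 0.0599%. Kept barcodes with enough S100a8 and S100a9 UMIs but under 2 receptor UMIs made up 3.84% (834) against 0.0213% (3), and by sample 3.26, 6.58 and 1.67% against 0, 0.0238 and 0.0399%. αPD-1 + corin replicate 2 was highest of the samples in each set.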

How the results depend on the processing

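The difference in the neutrophil share between the groups kept its direction in all settings (6.16 to 27.99 points, exact permutation p = 0.1 in each) and ran from 5.03 to 16.5 points with each sample left out. The difference in the share under 600 genes between the groups ran from 1.04 to 26.9 points over the other settings (exact permutation p from 0.2 to 0.7) and from 2.54 to 14.4 with a sample left out. The excess of neutrophils under 600 genes over other barcodes ran from 30.3 to 56.3 points (exact permutation p = 0.03125), and from 45.6 to 51.5 points with a sample left out, where 5 pairs allow no p below 0.0625. The gate's UMI limits bear on this excess in each setting.

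The count of genes that differed between the gene classes, 2881, moved by over 1.5 times in the following settings. It was 1839 by DESeq2, 4954 without the upper limit on genes and 650 with barcodes thinned to 500 UMIs. In settings chosen after seeing the data it was 1672 without barcodes of over 2000 genes, 685 without barcodes with a class II or C1q UMI, 404 with barcodes selected at equal depth and 462 with the same and no TMM. With an αPD-1 + corin sample left out it ran from 1543 (without replicate 2) to 3970 (without replicate 3), with 1690 without replicate 1. Fewer genes could be tested in the thinned and equal-depth settings (2435 and 2875). The cause of the other shifts was not tested.

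The 4 genes called between the treatments became 34 by DESeq2, 12 without a filter on low counts, 11 without TMM, 0 without the upper limit on genes (766 at an unadjusted p under 0.05) and 0 with 5 UMIs of S100a8 and S100a9 (370). In the last 2 settings αPD-1 replicate 1 also reached 10 barcodes and entered the fit, so the limit and the added sample cannot be told apart. With a sample left out the count ran from 4 to 62, being 62 without αPD-1 + corin replicate 1 and 11 without replicate 3. In settings chosen after seeing the data, all 6 samples gave 0 by edgeR and 23 by DESeq2, and 0 to 4 with a sample left out. A replicate block on the 6 samples also gave 0 (99 at an unadjusted p under 0.05, against 149 without it). Same-numbered samples did not deviate together over 1314 genes (r = -0.152, -0.0174 and -0.148), so the numbers were not read as pairs. The treatment comparison could not be fitted under 600 genes, at 600 to 4000 genes, with 20 S100 UMIs, with 4 receptor UMIs, without αPD-1 replicate 3 or with the block on 4 samples, and no fit gave the interaction of treatment and gene class.

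Of 1775 values of named genes under other settings 1614 kept their direction and call, 115 lost the call, 13 gained it and 33 changed direction. With a sample left out 225 of 244 kept both, 14 lost the call and 5 changed direction. Apart from Spp1, Cyba and Nfkb1, the genes that changed direction had not been called. Anxa1 (log2 fold change) became 0.11 without a filter, 0.48 without the upper limit, 0.036 and 0.023 with 5 and 20 S100 UMIs, 0.13 with 4 receptor UMIs, 0.057 with no C1q UMI, 0.084 without doublets, 0.22 with the border at 800 genes, 0.031 without 500 to 700 genes, 0.035 without over 2000 genes, 0.080 selected at equal depth, and -0.26 to 0.32 with a sample left out (highest without replicate 3). Hdac1 became 0.097 without a filter, 0.15 without the upper limit, 0.021 from 300 genes, 0.020 and 0.061 with 5 and 20 S100 UMIs, 0.091 with 1 receptor UMI, 0.24 with no C1q UMI, 0.060 with the border at 800 genes, 0.0031 without over 2000 genes, and -0.85 to 0.34 with a sample left out (above 0 without replicate 1 or 3). Ifitm3 became -0.063 with 1 receptor UMI, -0.012 thinned, -0.37 without TMM, -0.16 selected at equal depth without TMM, and -0.15 (without replicate 2) to 0.33 with a sample left out. Gapdh became -0.049 without the upper limit, -0.067 thinned, -0.31 without class II or C1q UMIs, -0.17 without TMM and -0.089 selected at equal depth without TMM. Spp1 became -0.32 selected at equal depth and -0.54 there without TMM, Cyba 0.37 without the upper limit, Rcor1 -0.86 to 0.026 with a sample left out (highest without replicate 2), and Nfkb1 in the treatment comparison 9.76 at a mitochondrial limit of 5%. The cause was not tested.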
